A study of Mus musculus with 2 samples.

Results

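The 32 genes described here encode the working parts of the lysosome, out of 21887 RefSeq protein-coding genes (assembly GRCm38.p6) examined in the series. Membership is by gene name, and all 32 were found in the gene table. They comprise 5 subunits of the membrane-embedded V0 sector and 5 of the cytosolic V1 sector of the vacuolar proton pump, 8 cathepsins, 3 other hydrolases, 8 membrane and lipid transport proteins and the 3 MiT/TFE transcription factors Tfeb, Tfe3 and Mitf. The study mapped DNA associated with PHLPP1, a protein phosphatase that acts on the kinase AKT, by CUT&Tag, in which an antibody tethers a transposase to chromatin so that nearby DNA is tagged and sequenced. Primary mouse macrophages were grown from bone marrow in M-CSF at 20 ng/ml and were either left untreated or given IL-4, a cytokine of alternative macrophage activation, at 20 ng/ml for 4 h. There was 1 library in each group, and the series design describes wild-type cells. No library with a control antibody and none from Phlpp1-deficient cells was analysed here. With 1 library a group there is no replicate check and no test, and a gene present in only 1 list is a description of these 2 lists.

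The lysosome degrades material delivered by phagocytosis, endocytosis and autophagy, a task on which macrophages depend. The vacuolar ATPase uses ATP to pump protons into the lumen, and the acid pH activates cathepsins and glycosidases. Membrane glycoproteins protect the limiting membrane, and NPC2 and NPC1 pass cholesterol out of the lumen. TFEB, TFE3 and MITF bind E-box sequences in the promoters of many lysosomal genes, and mTORC1 activity keeps TFEB and TFE3 in the cytoplasm.

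A deposited peak was counted as a gene-end peak of a gene when its summit lay no more than 1 kb from the lower or the higher coordinate end of the RefSeq gene. The untreated list held 149349 peaks and the IL-4 list 240661. No untreated summit held fewer than 4 fragments and no IL-4 summit fewer than 3, and the lowest local background was 1.46 times as high in the untreated library. A site with no listed peak can therefore still have held fragments. The depth of the libraries is not known, and the counts were repeated with lists cut to equal length and with peaks of at least 4 fragments. With lists of equal length, IL-4 peaks marked 21 of 32 members against 38.8% of all genes. Fragment numbers were solved from the deposited fold enrichment and p-value and are given with exact Poisson 95% intervals, which cover counting error only since amplified fragments are not independent molecules, and q is the peak caller's adjusted p-value for a peak against its local background, given as −log10 q so that a higher value is a clearer peak.

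Most lysosomal genes had an IL-4 gene-end peak, and few had an untreated one. IL-4 peaks marked 24 of 32 members (75%, Wilson 95% interval 57.9 to 86.7), against 49.3% of all protein-coding genes. The Wilson intervals here and below treat the members as independent random draws, which a list of named genes is not. They do not cover variation between libraries. Untreated peaks marked 7 of 32 (21.9%, 11.0 to 38.8), which is close to the 22.7% of all genes. By class, 21 members were marked by IL-4 peaks alone (65.6%, 48.3 to 79.6, against 35.5% of all genes), 3 by peaks of both lists (against 13.8%), 4 by untreated peaks alone (against 8.93%) and 4 by neither (against 41.8%). The members were set beside all genes, silent ones included. Expression was not measured here, and a comparison with other genes active in macrophages was not made.

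The difference between the lists was also seen among stronger peaks. At q of at most 0.05, IL-4 peaks marked 10 of 32 members (31.2%, 18 to 48.6, against 18.3% of all genes). Untreated peaks marked 0 of 32 (Wilson interval 0 to 10.7), against 4.02% of all genes. Where −log10 q reached 5, IL-4 peaks marked 1 member, Npc2, in a background of 2.63%, and untreated peaks 0, in a background of 0.0548%. Just outside q 0.05, with −log10 q 1.26 at their highest gene-end peak, were 5 members, Atp6v0b, Ctsc, Ctsl, Mcoln1 and Tfeb, and just inside it was Ctsa, with 1.34. Members with an IL-4 gene-end peak had a median of 6 fragments at the strongest one, against 5 over all genes with such a peak. The strongest had at least 8 fragments in 8 of 24 members (33.3%), against 16.1% over all genes with a peak.

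**Figure D1:**
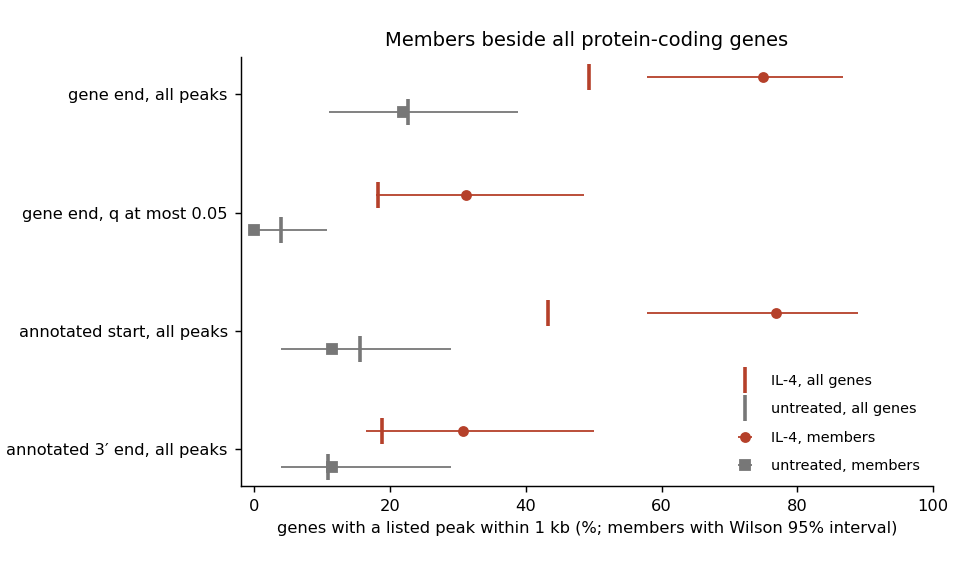
Percent of genes with a listed peak within 1 kb of either gene end, of an annotated start or of the annotated 3′ end, for the members (circles, IL-4 list; squares, untreated list; bars, Wilson 95% intervals) and for all protein-coding genes (vertical ticks). At gene ends over all peaks the IL-4 point stands at 75% beside a tick at 49.3%, and the untreated point at 21.9% beside a tick at 22.7%.

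The strongest gene-end peak of the group lay at Npc2, which encodes the soluble lumenal protein that binds cholesterol and hands it to NPC1. It had 15 fragments (8.40 to 24.7) in the IL-4 list, a fold enrichment of 7.82 over the local background and −log10 q 8.38, on chr12:84772960-84773271. Its summit was 43 bp inside the gene from the annotated start, and an end of Isca2, a gene of mitochondrial iron-sulfur cluster assembly, lies within 1 kb of the same summit. The untreated list had no peak near, the closest being 12400 bp from the start, with 6 fragments. Npc2 had 2 further IL-4 gene-end peaks, of 5 and 4 fragments. Npc1, the membrane partner of NPC2, had an IL-4 peak of only 3 fragments (0.619 to 8.77), the lowest number listed, 352 bp beyond its higher-coordinate end.

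Proton pump genes supplied 5 of the 10 members with an IL-4 gene-end peak at q of at most 0.05, and none of them had an untreated gene-end peak. Atp6v0c, which encodes the proteolipid subunit of the rotating membrane ring, had 11 fragments (5.49 to 19.7) with −log10 q 3.08, on chr17:24169488-24169760. Its summit was 64 bp inside the gene from the outermost annotated start, and no other protein-coding gene has an end within 1 kb of it. Atp6v1b2, encoding the B subunit that shares the ATP-binding interface, had 9 fragments (4.12 to 17.1) with −log10 q 4.19, on chr8:69088673-69088857, 21 bp from its lower-coordinate end. That gene has no strand in the tables used, and Slc18a1 has an end within 1 kb of the same summit.

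Atp6v0d1, encoding the V0 subunit that couples the ring to the central stalk, had 8 IL-4 fragments (3.45 to 15.8) with −log10 q 2.58, on chr8:105565846-105566199, 73 bp upstream of its start and within 1 kb of an end of Agrp. Atp6v1d, encoding the D subunit of that stalk, had 8 fragments with −log10 q 2.90, on chr12:78861407-78861994, a wide peak of 588 bp that also lies by Eif2s1, a translation initiation factor gene. Atp6v1a, encoding the catalytic A subunit, had 2 peaks of 6 fragments each, with −log10 q 1.57 and 1.61, and both are within 1 kb of an end of Naa50. These 3 genes thus share their peaks with a neighbour, and the lists do not assign a peak to either gene.

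Weaker or no gene-end peaks lay at the other pump genes. Atp6v0b, encoding another ring subunit, had IL-4 peaks of 6 and 5 fragments, with −log10 q 1.26 and 0.753. Atp6v0d2, the d isoform known from osteoclasts and macrophages, had 4 fragments (1.09 to 10.2) at 0.753. Atp6v0e, encoding a small membrane subunit, was the only pump gene among the members with an untreated gene-end peak, of 6 fragments, 399 bp inside its 3′ end. Atp6v1f, of the central stalk, and Atp6v1h, of the regulatory H subunit, had none in either list. In all, 4 of 5 V0 genes and 3 of 5 V1 genes had an IL-4 gene-end peak, against 49.3% of all genes. At q of at most 0.05 these were 2 and 3, against 18.3% of all genes. Among 12 further pump genes, 6 had an IL-4 gene-end peak and 2 had one at that threshold, near the shares of all genes.

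Cathepsin genes had an IL-4 gene-end peak in 7 of 8 cases, the highest share of the role groups, against 49.3% of all genes. An untreated one stood at 3 of 8, against 22.7%. The high IL-4 share did not extend to 8 further cathepsins and lysosomal proteases, of which 2 had an IL-4 gene-end peak and 1 an untreated one. Ctsz, encoding a carboxypeptidase of the cysteine cathepsins, had 9 fragments (4.12 to 17.1) with −log10 q 1.84, on chr2:174438682-174439512, the widest member peak at 831 bp, 240 bp inside its start. Ctsb, encoding an abundant cysteine protease of macrophages, had 8 fragments (3.45 to 15.8) at 3.40 on chr14:63122468-63122791, 95 bp from its lower-coordinate end. Ctsa, encoding the serine carboxypeptidase that stabilises β-galactosidase and neuraminidase, had 6 fragments (2.2 to 13.1) at 1.34 on chr2:164833232-164833607, by an end of Neurl2. None of these 3 genes had an untreated gene-end peak.

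Gene-end peaks of the remaining cathepsins did not pass q 0.05 in either list. Ctsc, encoding a dipeptidyl peptidase that activates granule proteases, had 5 IL-4 fragments 130 bp from its outer end, and Ctss, encoding the protease that trims the invariant chain for antigen presentation, had 4, 160 bp upstream of its start. Inside Ctss, 12304 bp from its start, the untreated list had a stronger peak, of 10 fragments (4.80 to 18.4) with −log10 q 3.41. Ctsd, the aspartic protease gene, stood the other way, with 6 untreated fragments (2.2 to 13.1) 170 bp upstream of its start and no IL-4 gene-end peak, the closest IL-4 peak to its start being 6604 bp away. Ctsh, an aminopeptidase gene, had 5 untreated and 4 IL-4 fragments at the same end, with summits 1165 bp apart and no overlap.

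Ctsl was the only member at which gene-end peaks of the 2 lists overlapped. Ctsl encodes an endopeptidase. Near its 3′ end the untreated peak had 4 fragments (1.09 to 10.2) and the IL-4 peak 5 (1.62 to 11.7), with summits 100 bp apart. At its start only the IL-4 list had a peak, of 6 fragments, 14 bp from the annotated start. Of the 38 IL-4 gene-end peaks of the members, 2 overlapped any untreated peak, and of the 7 untreated ones, 1 overlapped an IL-4 peak. Over all genes, 8.60% of IL-4 gene-end peaks overlapped an untreated peak and 21.7% of untreated ones an IL-4 peak, so little overlap was usual for these lists. At q of at most 0.05, 0 of 11 member peaks in the IL-4 list overlapped an untreated peak, against 17.3% over all genes. The other IL-4 peak with an overlap, at Ctsz, met an untreated peak of 5 fragments whose summit was 1021 bp from the start and so just outside the 1 kb window.

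Other hydrolase genes had weak peaks in both lists. Glb1, encoding β-galactosidase, had 6 IL-4 fragments (2.2 to 13.1) with −log10 q 1.11, 130 bp inside its start, where an end of Tmppe also lies. Hexa, encoding the α subunit of β-hexosaminidase, had 5 IL-4 fragments 27 bp upstream of its start, by an end of Tmem202. Gaa, encoding the acid α-glucosidase that degrades glycogen, had 4 untreated fragments (1.09 to 10.2) 266 bp inside its start and no IL-4 gene-end peak.

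Membrane protein genes ranged from the Npc2 peak to none. Cd68, encoding a macrophage lysosomal glycoprotein, had 9 IL-4 fragments (4.12 to 17.1) with −log10 q 1.84, 282 bp inside its 3′ end and 1675 bp from its start, and the closest untreated peak to its start was 35012 bp away. Lamp2, a major glycoprotein of the limiting membrane, and Scarb2, the receptor that delivers glucocerebrosidase, had 4 IL-4 fragments each. Lamp1, the paralogue of Lamp2, had no gene-end peak in either list.

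Mcoln1 and Cd63 show that a class by gene ends can mix different sites. Mcoln1, encoding a calcium channel of the lysosome, had 5 IL-4 fragments 69 bp upstream of its start and 6 untreated fragments 202 bp beyond its 3′ end, by an end of Pnpla6, with the summits 14984 bp apart. Cd63, a tetraspanin gene, had an untreated gene-end peak of 6 fragments 681 bp inside the outer end of its gene model, 12433 bp upstream of the listed start. At that start both lists had a weak peak, of 5 untreated fragments 188 bp upstream and 4 IL-4 fragments 524 bp downstream.

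**Figure D2:**
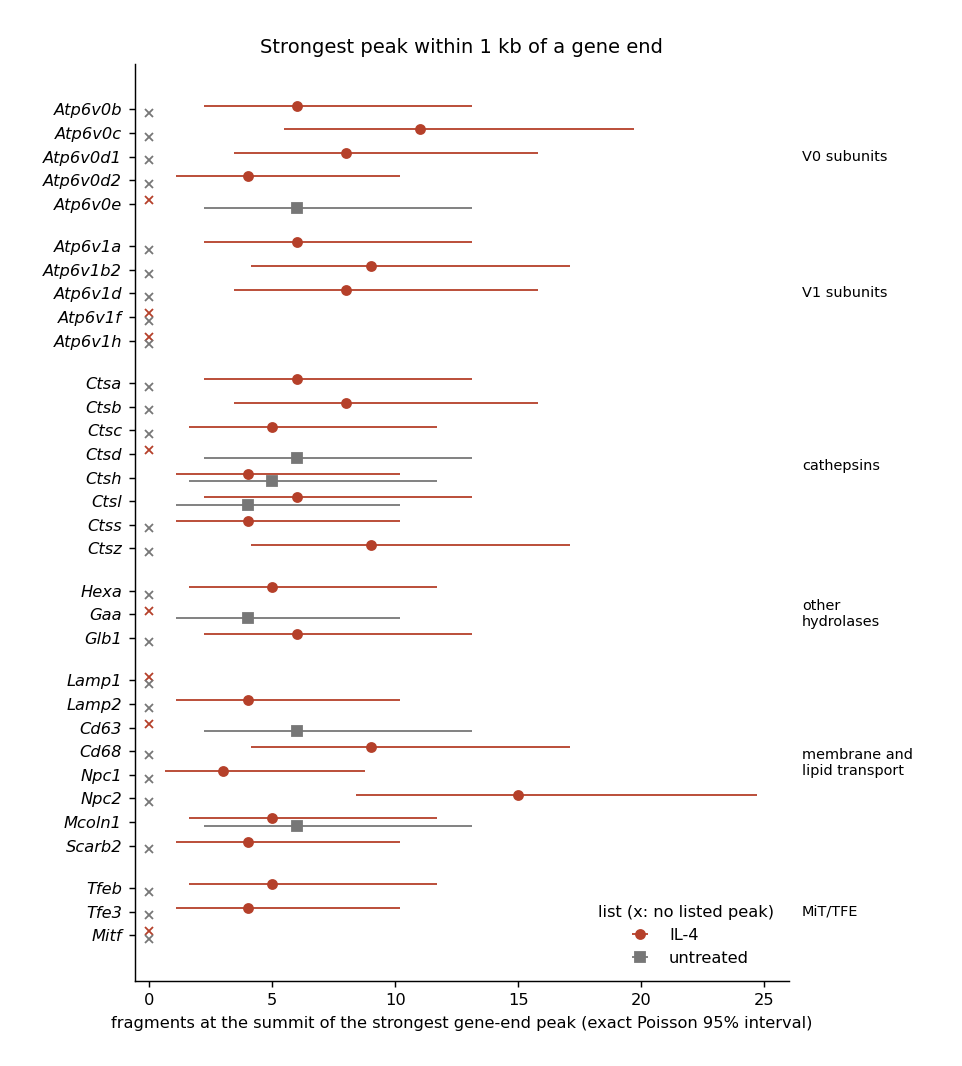
Fragments at the summit of the strongest gene-end peak of each member in the IL-4 list (circles) and the untreated list (squares), grouped by role, with exact Poisson 95% intervals; a cross at the left marks a list with no gene-end peak for that gene and is not a measured 0. Npc2 at 15 and Atp6v0c at 11 IL-4 fragments stand highest, and no untreated point is above 6.

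Among peaks within 1 kb of a gene end or an annotated start, those of highest −log10 q at the regulators Tfeb and Mitf lay at internal starts. Stronger IL-4 peaks lay farther off, with 9 fragments and −log10 q 4.35 at 39500 bp from the end of Mitf, and 9 fragments and 4.12 at 48764 bp from the end of Tfeb, by an end of Tomm6. Tfeb had 8 IL-4 fragments with −log10 q 2.43, 168 bp from its start at position 47737931 of chromosome 17, and 5 fragments each at 3 gene-end peaks. Mitf, which spans 214359 bp, had no gene-end peak in either list. Its start at position 97991783 of chromosome 6 had IL-4 peaks of 6 fragments 711 bp upstream, with −log10 q 1.84, and of 3 fragments 104 bp upstream. Tfe3 had IL-4 peaks of 4 fragments 55 bp and 1 bp from its 2 annotated starts. No untreated peak lay within 1 kb of a start of any of the 3 genes, the closest being 1690 bp from a start of Mitf.

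The IL-4 peaks of lysosomal genes lay at starts more than at 3′ ends, as did those of all genes. Strand and annotated starts were available for 26 members and for 17492 genes in all. An IL-4 peak lay within 1 kb of a start for 20 of 26 members (76.9%, 57.9 to 89.0), against 43.3% of all genes, and within 1 kb of the 3′ end for 8 of 26 (30.8%, 16.5 to 50), against 18.8%. At q of at most 0.05 these were 9 of 26 (34.6%, 19.4 to 53.8), against 18.1%, and 1 of 26 (3.85%), against 3.02%. Untreated peaks lay at starts of 3 of 26 members (11.5%, against 15.6%) and at 3′ ends of 3 of 26 (against 10.9%). The 6 members with no IL-4 peak at a start were Atp6v0e, Atp6v1f, Cd68, Ctsd, Gaa and Lamp1. Of the 30 IL-4 peaks at starts, 13 had the summit upstream and 17 downstream, and 17 of 26 members had one within 300 bp (65.4%, 46.2 to 80.6, against 28.1% of all genes). Untreated peaks lay that close for 3 of 26, against 7.43%.

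**Figure D3:**
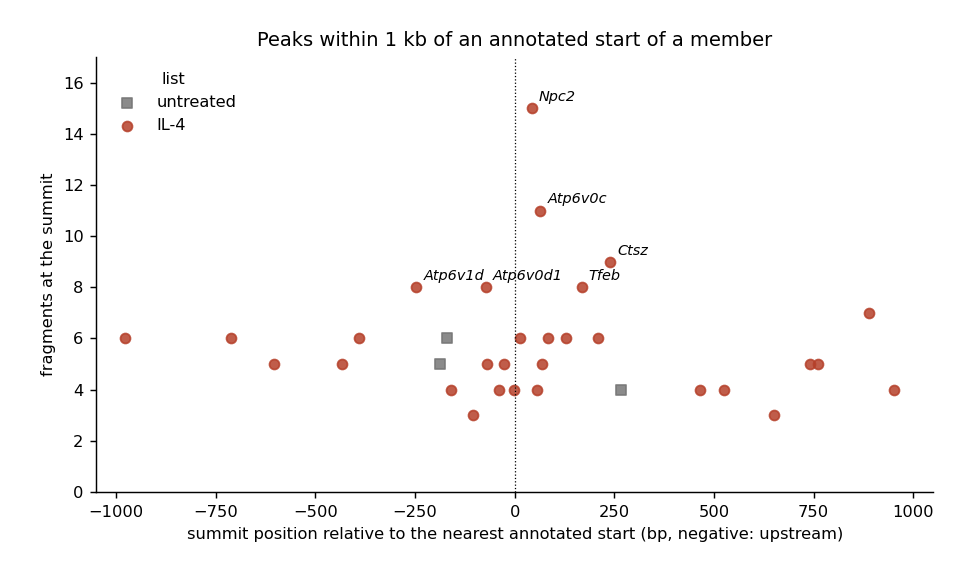
Position of each summit within 1 kb of an annotated start (x axis, bp from the nearest start, negative upstream) against the fragments at that summit (y axis), for the 26 members with an annotated start. The 30 IL-4 summits (circles) lie on both sides of the start and rise to 15 fragments at Npc2, and the 3 untreated summits (squares) hold 4 to 6.

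Promoter sequence was read for the same 26 members, over 250 bases before and 50 after each start. The E-box core CACGTG, which MiT/TFE factors bind, occurred in 11 of 26 members (42.3%) and in 8.91% of the 17492 genes. With the T before it that these factors prefer, TCACGTG on either strand, which contains the core, it occurred in 10 of 26 (38.5%), against 5.0%. The letters CCGGAAG, known for ETS factors such as ETS1 and GABPA, were in 5 of 26 members (19.2%, against 12.9%), and CCAAT, known for NF-Y, in 8 of 26 (30.8%, against 42.3%). Both strands were searched with no mismatch, and a match is a description of the sequence, not of binding.

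Members with the E-box core did not have IL-4 peaks at starts in a higher share than members without it. An IL-4 peak lay within 1 kb of a start for 7 of the 11 members with the core, against 57.2% of all genes with it, and for 13 of the 15 members without it, against 42.0% of all genes without it. The first 3 windows below are those of the members with the core and an IL-4 peak at the start at q of at most 0.05, with the core in capitals, and the last is that of Npc2, the strongest peak, which holds no core and shows CCAAT and CCGGAAG in capitals on either strand. All are from RefSeq, GRCm38.p6, and run 5′ to 3′ along the gene, with the annotated start as the first base after base 250.
Atp6v0d1, chr8:105566015-105566314, minus strand: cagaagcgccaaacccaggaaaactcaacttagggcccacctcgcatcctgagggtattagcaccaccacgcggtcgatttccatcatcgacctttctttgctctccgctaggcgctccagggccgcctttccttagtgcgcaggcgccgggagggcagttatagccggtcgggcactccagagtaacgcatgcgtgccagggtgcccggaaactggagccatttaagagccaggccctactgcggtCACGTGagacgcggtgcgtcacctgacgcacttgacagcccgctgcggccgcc
Atp6v1a, chr16:44139210-44139509, minus strand: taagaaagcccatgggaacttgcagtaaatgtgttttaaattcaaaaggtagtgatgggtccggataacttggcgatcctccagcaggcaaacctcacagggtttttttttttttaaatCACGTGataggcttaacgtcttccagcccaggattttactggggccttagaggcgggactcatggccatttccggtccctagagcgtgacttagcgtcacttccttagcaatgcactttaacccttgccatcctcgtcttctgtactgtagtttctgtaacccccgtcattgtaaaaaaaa
Ctsa, chr2:164833523-164833822, plus strand: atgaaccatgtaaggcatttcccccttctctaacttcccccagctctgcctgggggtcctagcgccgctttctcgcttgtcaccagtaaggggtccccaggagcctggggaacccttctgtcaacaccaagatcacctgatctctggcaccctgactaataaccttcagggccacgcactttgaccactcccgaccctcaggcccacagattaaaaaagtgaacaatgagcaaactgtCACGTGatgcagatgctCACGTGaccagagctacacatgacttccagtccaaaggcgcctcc
Npc2, chr12:84773063-84773362, minus strand: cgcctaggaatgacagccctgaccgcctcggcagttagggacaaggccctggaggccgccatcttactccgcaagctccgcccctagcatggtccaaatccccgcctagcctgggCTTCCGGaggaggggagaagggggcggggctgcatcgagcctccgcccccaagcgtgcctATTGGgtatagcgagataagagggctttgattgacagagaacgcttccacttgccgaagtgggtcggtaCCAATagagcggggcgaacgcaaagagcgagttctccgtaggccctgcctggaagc

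In Atp6v0d1 the core begins 3 bases before the start, and the summit of its IL-4 peak falls at base 178 of the window, 70 bases from the first base of the core. In Atp6v1a the core begins 131 bases before the start, and the summits of both IL-4 gene-end peaks lie outside the printed bases. The Ctsa window belongs to the inner of its 2 annotated starts and carries the core on both sides of that start, and the summit of its IL-4 peak was 390 bp upstream of that start. The Npc2 summit falls at base 294 of its window, downstream of the marked letters.

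Promoter CpG content was set beside the peaks at starts. For a gene with several windows the highest CpG number and the highest GC content were taken. The members had a median of 18 CpG, against 15 over all genes, and a median GC content of 60.5%, against 57.3%. Among genes with more CpG than the median, 9 of 14 members had an IL-4 peak at a start, against 61.1% of all such genes, and 6 of 14 at q of at most 0.05, against 30.2%. Among genes at or under the median, 11 of 12 members had one, against 27.0%, and 3 of 12 at q of at most 0.05, against 6.95%. In the upper quartile of CpG number, 5 of 6 members had one, against 64.4%, and 2 of 6 at q of at most 0.05, against 32.9%. Over all peaks, members at or under the median stood far above the share of all such genes, and members above the median stood near it. These classes hold few members.

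Peaks around each gene were counted within 50 kb of either gene end, which leaves out the middle of Mitf. Every one of the 32 members had more peaks in the IL-4 list than in the untreated list, as did 85.1% of all genes. Members had a median of 15 IL-4 peaks and 7 untreated peaks, against 14 and 7 over all genes. The median log2 ratio, with 1 added to each number, was 1.24, against 0.81 over all genes (quartiles 0.32 and 1.26), and 22 members were above the median of all genes and 14 above the upper quartile. With the IL-4 list cut to as many peaks as the untreated one, the medians were 0.71 and 0.17.

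The role groups differed in this count. V1 pump genes had the lowest ratios, with a median of 0.32 and a range of 0.24 to 0.42, so that all 5 lay under the median of all genes. V0 pump genes had a median of 1.12, cathepsins 1.28, other hydrolases 1.32, membrane and lipid transport genes 1.67 and MiT/TFE genes 1.07. Lamp2 had 7 IL-4 peaks and 0 untreated peaks, a log2 ratio of 3.0 that depends on the added 1. Cd68 had 15 and 2 (2.42) and Atp6v0c 17 and 3 (2.17). At the low end Cd63 had 14 and 12 (0.21), Atp6v1h 12 and 10 (0.24) and Atp6v1f 11 and 9 (0.26). Mitf had 27 IL-4 and 14 untreated peaks inside the gene.

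**Figure D4:**
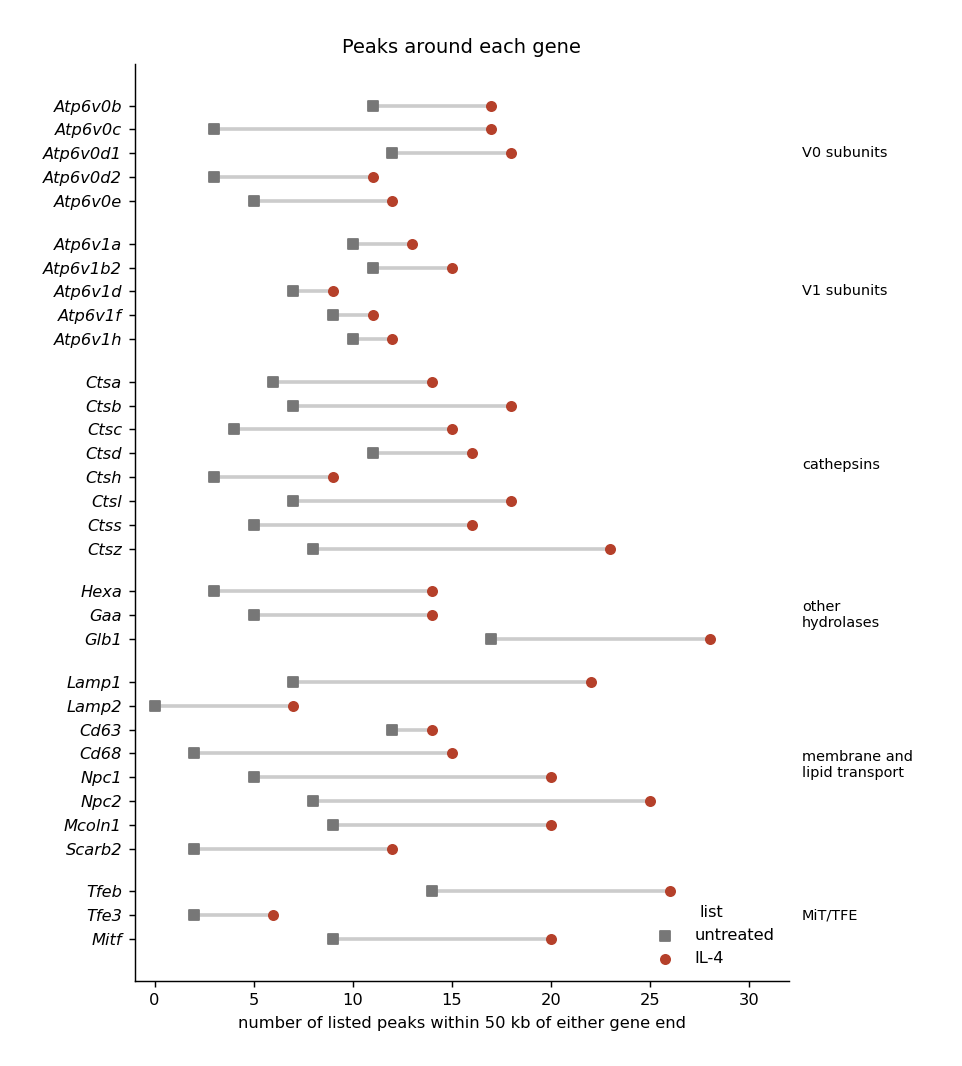
Number of listed peaks within 50 kb of either gene end for each member in the untreated list (squares) and the IL-4 list (circles), grouped by role. The IL-4 circle stands to the right of the untreated square for all 32 genes, by 2 to 4 peaks for the V1 pump genes and by 13 for Cd68.

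The strongest peak in these surroundings was seldom at the member's own end. In the IL-4 list it lay within 1 kb of the member's own end for 5 of 32 members (15.6%, against 11.3% of all genes), namely Atp6v0c, Atp6v0d1, Atp6v1b2, Atp6v1d and Npc2. For 12 of 32 (37.5%, against 19.6%) it lay within 1 kb of an end of another gene. For 15 of 32 it lay more than 1 kb from any gene end, a lower share than the 14198 of 21887 over all genes. Near Atp6v0e it was a peak of 14 fragments (7.65 to 23.5) with −log10 q 8.61, 585 bp from an end of Crebrf, and near Cd68 one of 12 fragments (6.20 to 21.0) at 7.58, 131 bp from an end of Fxr2. Ctsb had its strongest IL-4 peak inside the gene, with 11 fragments (5.49 to 19.7) at 4.09, 10154 bp from the nearest end. In the untreated list the strongest peak lay at the member's own end for 1 of 32 (3.12%, against 3.88%), Ctsh, with 5 fragments.

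Other lysosome genes, 70 in number and listed by role, also had more gene-end peaks from IL-4 than from untreated cells. An IL-4 gene-end peak stood at 42 of 70 (60%, against 49.3% of all genes) and an untreated one at 15 of 70 (21.4%, against 22.7%). At q of at most 0.05 these were 22 (31.4%, against 18.3%) and 2 (2.86%, against 4.02%). Against the same 49.3%, lysosomal membrane and transport genes had an IL-4 gene-end peak in 15 of 17 cases (88.2%), the further cathepsins and proteases in 2 of 8 (25%) and the further pump genes in 6 of 12. Of the 17 membrane and transport genes, 12 had one at q of at most 0.05 (70.6%, against 18.3% of all genes). The other roles were nearer that share or under it. Further pump genes had one in 2 of 12 cases (16.7%) and further cathepsins and proteases in 1 of 8 (12.5%). Other hydrolases and activators had one in 6 of 26 cases (23.1%) and regulators in 1 of 7 (14.3%). Gm2a, encoding the activator protein for ganglioside breakdown, had the strongest peak of the 70 genes and had it in both lists. It had 13 IL-4 fragments (6.92 to 22.2) with −log10 q 5.66 and 9 untreated fragments (4.12 to 17.1) at 2.70, 86 and 122 bp from its start. Slc17a5, the sialic acid exporter gene, and Laptm4a had 10 IL-4 fragments each, with −log10 q 4.44 and 4.16. Ctsk, the collagen-degrading cathepsin of osteoclasts, had 9 untreated fragments at 2.70 near its 3′ end and no IL-4 gene-end peak. The next strongest untreated peaks, at Asah1, Atp6v0e2, Man2b1 and Sgsh, had 6 fragments each with −log10 q 1.11. The E-box core occurred in 13 of the 54 of these genes with a promoter window (24.1%).

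Peaks do not measure expression, and the cell type was not readable from them. Of 8 macrophage marker genes, 5 had an IL-4 gene-end peak and 1 an untreated one, while Adgre1, Csf1r and Itgam had none in either list. IL-4 gene-end peaks stood at 2 of 6 neutrophil, 3 of 5 T cell, 2 of 5 B cell, 4 of 4 dendritic cell and 0 of 4 stromal marker genes. Untreated ones stood at 3 of 5 T cell and 3 of 5 B cell genes, no fewer than the IL-4 ones, and at 0 of the neutrophil, dendritic cell and stromal genes. Over all 32 marker genes 16 had an IL-4 gene-end peak, against 49.3% of all genes, and 7 an untreated one, against 22.7%, and 1 macrophage and 1 dendritic cell gene had one at q of at most 0.05.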

How the data were processed

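The authors deposited 1 narrowPeak list per library. Build mm10, DiffBind, MACS2 2.2.7.1 and Bowtie 0.12.8 appear in the submitters' processing notes, with no roles. For the control, fragment size and duplicate handling, nothing is given in the sources used here. The files have no header, so units follow the narrowPeak layout. The deposited summit values are fold enrichment (a ratio to local background), −log10 p and −log10 q. In 100% of entries the deposited score equalled 10 times −log10 p, truncated. Positions are counted from 1.

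Entries sharing an interval, 203 untreated and 654 IL-4, were reduced to the summit of highest −log10 q. Fragments were solved from fold = (fragments + 1)/(background + 1) and a Poisson upper tail, with a whole number within 0.01 of −log10 p for 100% of the entries. This was tested on simulated peaks of at least 4 fragments, so the IL-4 peaks of 3 fragments were not covered by the test. Genes came from RefSeq GRCm38.p6, the assembly of mm10, and strand and starts from its promoter table, where 26 of 32 members and 17492 of 21887 genes had an entry. The tools were Python 3.11.15, NumPy 2.4.6, pandas 2.3.3 and SciPy 1.17.1.

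Every member is accounted for, with more detail for those with a gene-end peak at q of at most 0.05 or in both lists. Fold enrichment is given for Npc2 only, and weaker further gene-end peaks of some members are left out. Members were listed by name, and they, the other gene lists and the thresholds were chosen with earlier results of these data known. Comparisons by CpG content and E-box class, the 300 bp distance, the overlap over all genes and the place of the strongest peak, were added after the data were seen.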

Additional observations from a re-analysis of the deposited data

How the results depend on the processing

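IL-4 gene-end peaks marked 24 members, untreated ones 7, IL-4 ones alone 21 and both 3. With a window of 500 bp, peaks of at least 4 fragments, lists of equal length or, added after the data were seen, only peaks at an end of 1 gene, all 4 counts stayed within 1.5 times these, with 21 IL-4 members against 38.8% of all genes for lists of equal length and 19 against 40.3% for peaks of 1 gene. At q of at most 0.05 they were 10, 0, 10 and 0, and where −log10 q reached 5 they were 1, 0, 1 and 0, since fewer peaks enter. A window of 3 kb gave 9 in both lists, against 38.6% of all genes, and 10 in the untreated list, against 46.3%, both under the share of all genes. Interval overlap gave 5 in both lists, against 15.5%. With annotated starts only, for 26 members, 3 had an untreated peak and 1 a peak in both lists. The median log2 ratio of peaks within 50 kb was 1.24, and it was 1.08 within 10 kb, 0.97 within 100 kb, 1.00 at q of at most 0.05, 0.91 for at least 4 fragments, 0.71 for lists of equal length, 1.3 with 0.5 added and 1.18 without chromosome X, a setting added after the data were seen. The medians over all genes were 0.81 and, in the same order, 0.68, 0.80, 0.58, 0.32, 0.17, 0.83 and 0.79. Of the IL-4 gene-end peaks, 2 overlapped an untreated peak, 1 when 50% of the shorter peak was required and 0 of 11 at q of at most 0.05. No paired analysis was possible because each group had 1 library. The median of 4 to 5 fragments a peak limits each of these values.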
